A study of Mus musculus with 8 samples.

Results

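The smooth muscle contractile genes described here were 10 genes, Acta2, Actg2, Tagln, Cnn1, Cnn2, Myh11, Myl9, Lmod1, Cald1 and Des, found by symbol among the 18768 genes of the deposited table. Each of the 10 had a row there. A filter on low counts left 15153 genes for testing, among them 9 of the 10, all but Des. RNA was sequenced from 4 mouse fibrosarcoma cell lines. MC010 and MC011 came from tumors of IRF8 KO mice and MC654 and MC659 from tumors of WT C57BL/6 mice. Every mouse had received methylcholanthrene (MCA), a chemical carcinogen, in peanut oil under the skin, and each line was grown from digested tumor tissue over at least 10 passages. Each line had 2 libraries, so 4 libraries stood on each side but only 2 lines, and the labels do not say whether the libraries of a line came from separate cultures. The p-values for comparisons of lines therefore measure the spread between libraries of a line, which may be technical. Those for KO against WT measure the spread among the 4 libraries of a label, which also holds differences between its 2 lines. They treat the 4 libraries as independent, although these come from only 2 lines. Ages of the mice were not given in the sources used here.

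Contractile smooth muscle slides thick filaments of smooth muscle myosin along thin filaments of actin, and the calponins, caldesmon and transgelin bind those thin filaments. Serum response factor (SRF), with its coactivators myocardin and the myocardin-related factors, switches many of these genes on through short promoter elements called CArG boxes. Fibroblasts that turn into myofibroblasts, and many cultured mesenchymal cells, also make Acta2, Tagln and caldesmon, so none of these alone marks a smooth muscle cell.

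RefSeq promoter windows (GRCm38.p6, 250 bases before to 50 after each start) were found for 7 of the 10 genes, in 8 windows. Those of Actg2, Tagln and Myh11 were not matched. A CArG box was searched as 2 C, 6 inner bases that are A or T, and 2 G, a pattern that reads the same on both strands, and also with at most 1 C or G among the inner bases. It was found in 3 of the 7 genes, Acta2, Cnn2 and Myl9. Of all 32851 windows of this length, 1.63% held the box with 6 of 6 inner bases A or T and 9.98% held it under the looser rule. The stretches before these 3 starts are shown because SRF is the known regulator of this group, and because their genes ranged from a clear difference between the labels (Acta2) to a small one (Cnn2) and one within the spread (Myl9). Capitals mark the boxes, and each stretch runs 5′ to 3′ on the gene's own strand. Distances are counted from RefSeq's start, where the stretch of Acta2 ends, while those of Cnn2 and Myl9 end 16 and 44 bases short of it, just before the gene's start in the deposited table.

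Acta2 promoter, chr19:34255374-34255573, minus strand: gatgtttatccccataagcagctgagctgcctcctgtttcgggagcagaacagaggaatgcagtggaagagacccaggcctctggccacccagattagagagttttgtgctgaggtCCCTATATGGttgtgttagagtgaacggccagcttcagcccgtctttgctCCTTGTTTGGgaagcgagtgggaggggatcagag
Cnn2 promoter, chr10:79988400-79988583, plus strand: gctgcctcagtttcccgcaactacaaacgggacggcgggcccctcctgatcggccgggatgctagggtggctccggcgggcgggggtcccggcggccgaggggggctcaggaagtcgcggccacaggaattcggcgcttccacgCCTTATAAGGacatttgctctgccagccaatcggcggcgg
Myl9 promoter, chr2:156775264-156775419, plus strand: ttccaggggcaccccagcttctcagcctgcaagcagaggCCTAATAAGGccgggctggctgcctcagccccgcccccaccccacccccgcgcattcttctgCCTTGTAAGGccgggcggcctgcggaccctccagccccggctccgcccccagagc

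The boxes of Acta2 began 84 and 34 bases before RefSeq's start, and each had 1 inner base that was not A or T. RefSeq places that start 37 bases before the start of Acta2 in the deposited table. The box of Cnn2, 56 bases before the start, had A or T at all 6 inner positions, as did the first box of Myl9 at 161 bases, while the second box of Myl9 at 99 bases had 1 other base. A match of letters is a description of the window and not a measurement of binding.

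Libraries held 74063616 to 116206078 counts. A count of 3, taken as the floor of a library, corresponded to 0.0262 to 0.0408 CPM (each count as a rate on the TMM-normalized size of its library). The targeted gene, Irf8, had 442 and 347 counts in MC010, 32 and 10 in MC011, 1 and 2 in MC654 and 1 and 0 in MC659, against the direction of the labels, so KO and WT below mean the libraries labelled KO and WT. The study determined these genotypes by genotyping the lines, and a count per gene cannot show from which part of Irf8 a read came. The median log2 difference of all genes tested, KO minus WT, was 0.021.

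To see how much of the contractile program these lines carried, levels were compared per length of exon, as mean CPM per kb of each line. Acta2, Cald1 and Cnn2 were abundant in all 4 lines. Acta2, the smooth muscle alpha-actin, stood at 66.3 CPM per kb in MC010, 33.2 in MC011, 132 in MC654 and 222 in MC659. Cnn2, a calponin that is also made outside muscle, ranged over the lines from 140.0 to 214 CPM per kb. Cald1, the actin-binding caldesmon, ranged from 111 to 177. These levels put Cnn2 and Cald1 at or above the 97.8th percentile of the genes tested in every line.

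Tagln, which encodes transgelin (SM22-alpha), split the lines. Its level per length was 86.8 and 102 CPM per kb in MC654 and MC659, at the 97.1th and 97.6th percentiles, and 6.92 and 3.48 in MC010 and MC011, at the 60.0th and 46.7th. Myl9, a regulatory light chain of myosin, was intermediate in all lines, from 4.99 to 14.1 CPM per kb.

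The genes most restricted to differentiated smooth muscle, and Des, which is not restricted to it, were low in every line. Myh11, the smooth muscle myosin heavy chain, had 0.0165 to 0.0242 CPM per kb and 9 to 22 counts per library. Lmod1, a leiomodin that nucleates actin filaments, had 0.012 to 0.159 CPM per kb. Cnn1, the calponin of smooth muscle, had 0.248 to 0.529. Actg2, the gamma-actin of visceral smooth muscle, had 0.145 to 0.788, and Des, the muscle intermediate filament desmin, had 0 to 0.0771. No level of the transcriptional coactivator Myocd was obtained here. By these markers the lines did not carry the profile of differentiated smooth muscle, and the genes are named below by symbol. The 10 genes together took 0.18 to 0.201% of the counts in KO libraries and 0.291 to 0.337% in WT libraries, and Cald1 alone made up 62.4 to 75.8% of that share.

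**Figure D1:**
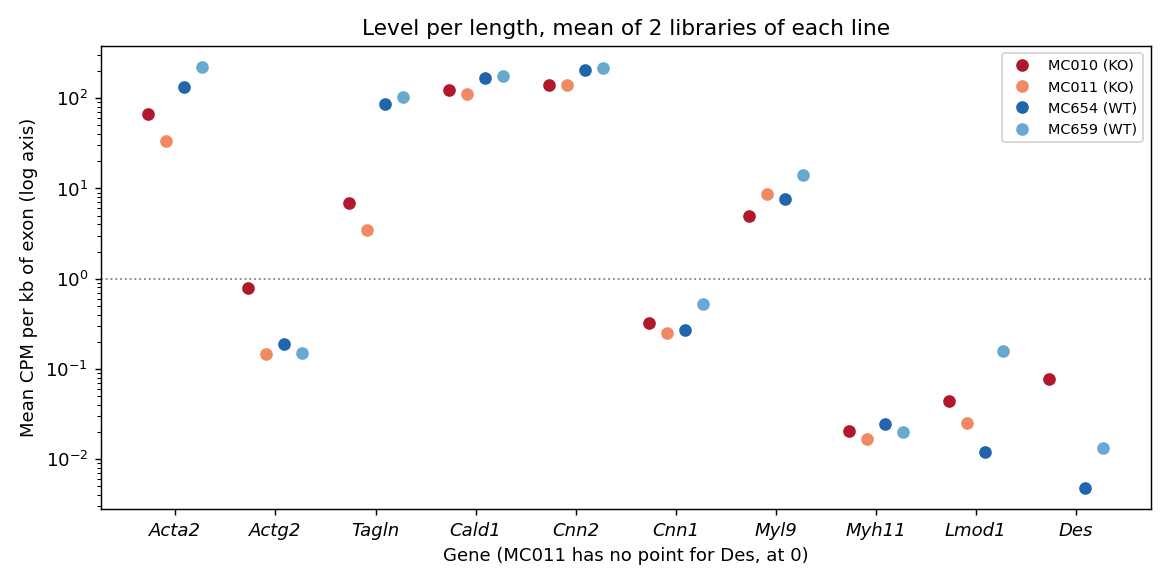
Mean CPM per kb of exon of each gene on a log axis, one point per line (mean of 2 libraries), with a dotted line at 1. Acta2, Cald1 and Cnn2 lie above 30 in all 4 lines, Tagln lies above 80 in the WT lines and below 7 in the KO lines, and Actg2, Cnn1, Myh11, Lmod1 and Des lie below 1 throughout.

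The comparison of the labels asked which genes differ between tumor lines from IRF8 KO and WT mice. Acta2 and Tagln were called lower in KO libraries, and no tested gene of the group was called higher. With edgeR's quasi-likelihood test, an adjusted p under 0.05 and a log2 difference above 0.59 in size, 2 of the 9 genes tested were called lower and 0 higher, against 8.72% of all genes called lower and 13.7% called higher. The median log2 difference of the 9 genes was -0.568. Without line MC011 the calls were 2 higher and 4 lower of 10 tested, where 19.7% of all genes were called higher and 16.6% lower. Without line MC654 they were 5 lower of 10, where 5.22% of all genes were called lower. In 4 genes, Acta2, Tagln, Cnn2 and Cald1, every KO library lay below every WT library, and in none did every KO library lie above. Among all genes tested, 20.5% had all KO libraries below and 22.1% all KO libraries above.

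**Figure D2:**
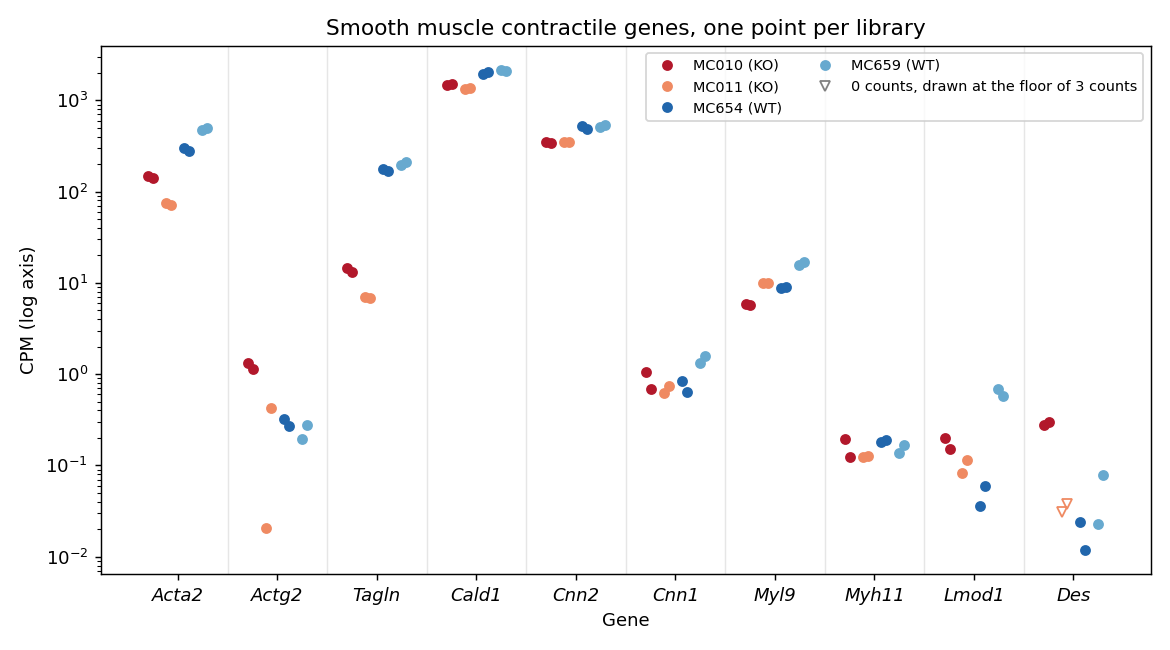
CPM of each gene in each of the 8 libraries on a log axis, coloured by line, with KO lines in red and orange and WT lines in blue. Open triangles mark the 2 MC011 libraries without a count of Des, drawn at the level of 3 counts, and the KO and WT points of Acta2, Tagln, Cnn2 and Cald1 do not overlap.

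Acta2 (ENSMUSG00000035783, chromosome 19 of mm10, 34241090 to 34255336) had 149.6 and 142 CPM in MC010, 74.5 and 71.5 in MC011, 298 and 282 in MC654, and 473 and 504 in MC659. The 4 lines formed 4 separate steps with no overlap. The mean was 109 ± 42.1 CPM in KO and 389 ± 115 in WT libraries (SD, n = 4), which is 3.56-fold higher in WT. The log2 difference, KO minus WT, was -1.83 (SE 0.32, edgeR adjusted p = 0.00315). When both libraries of a line were summed, leaving 2 lines against 2, the difference stayed at -1.82 and the adjusted p was 0.150.

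Tagln (ENSMUSG00000032085, chromosome 9, 45929619 to 45936058) had 14.4 and 13.2 CPM in MC010, 7.04 and 6.79 in MC011, 179 and 167 in MC654, and 196 and 209.7 in MC659. Both KO lines lay far under both WT lines, and the lowest WT library exceeded the highest KO library by more than the whole KO range. The mean was 10.3 ± 3.99 CPM in KO and 188 ± 19.0 in WT (SD, n = 4), an 18.2-fold higher level in WT. The log2 difference was -4.18 (SE 0.29, edgeR adjusted p = 4.07e-05), and on line sums it was -4.17 with an adjusted p of 0.0670. An antisense gene, Gm48529, picked out after its values were seen, covers 62.4% of Tagln's exon bases, and Pcsk7 covers 5.43%, both on the opposite strand. Gm48529 had 0.839 to 1.55 CPM over the 8 libraries. Whether the counting used strand was not stated, and without strand the reads of such a pair cannot be told apart.

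The other thin-filament genes differed by less. Cald1 (chromosome 6, 34598500 to 34775473) had 1456 and 1524 CPM in MC010, 1318 and 1366 in MC011, 1946 and 2056 in MC654, and 2152 and 2112 in MC659. Its KO and WT libraries did not overlap, and the mean was 1.46-fold higher in WT. The log2 difference of -0.55 (SE 0.06, edgeR adjusted p = 0.000474) had a p past its threshold but a size under 0.59, and became -0.64 without line MC010. The annotation lists 18 transcripts of Cald1, and a count per gene does not separate smooth muscle caldesmon from the forms of other cells.

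Cnn2 (chromosome 10, 79988584 to 79996062) had 349.7 and 337 CPM in MC010, 353 and 347 in MC011, 519 and 485 in MC654, and 515 and 538 in MC659. The 4 KO libraries formed a narrow band at 347 ± 6.89 CPM, under the WT libraries at 514 ± 22.1 (SD, n = 4). The log2 difference was -0.57 (SE 0.05, edgeR adjusted p = 0.000119), short of the fold threshold, and -0.61 without line MC654, past it.

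Cnn1 (chromosome 9, 22099216 to 22109630) had 1.07 and 0.68 CPM in MC010, 0.622 and 0.734 in MC011, 0.839 and 0.635 in MC654, and 1.31 and 1.58 in MC659. Only MC659 stood above the rest, and KO and WT overlapped. The log2 difference of -0.49 (SE 0.34, edgeR adjusted p = 0.289) was within the spread, and was 0.065 without MC659.

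Among the myosin genes, Myl9 (chromosome 2, 156775420 to 156781658) had 5.94 and 5.66 CPM in MC010, 9.94 and 9.98 in MC011, 8.82 and 8.98 in MC654, and 15.9 and 16.8 in MC659. MC011 lay above MC654, so the labels overlapped, and the log2 difference of -0.68 (SE 0.30) had an edgeR adjusted p of 0.115. It was -1.13 without MC011, with an adjusted p of 0.0193. Myh11 (chromosome 16, 14194535 to 14291372) had 0.122 to 0.192 CPM in KO and 0.136 to 0.188 in WT libraries, overlapping throughout. Its log2 difference was -0.23 (SE 0.29, edgeR adjusted p = 0.59), and at 9 to 22 counts per library a small difference was not detectable.

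Actg2 (chromosome 6, 83512905 to 83536265) had 1.31 and 1.14 CPM in MC010, 0.0207 and 0.43 in MC011, 0.324 and 0.271 in MC654, and 0.193 and 0.278 in MC659. MC010 stood above all other libraries, while the libraries of MC011 disagreed, at 2 counts (exact Poisson 95% interval 0.242 to 7.22) and 34 counts (23.5 to 47.5). These intervals cover counting error only. KO and WT overlapped, and the log2 difference of 1.44 (SE 0.87) had an edgeR adjusted p of 0.231. It was 1.85 without the MC011 library of 2 counts (adjusted p = 0.0131), 2.19 without line MC011 (adjusted p = 0.000112) and -0.29 without line MC010 (adjusted p = 0.780).

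Lmod1 (chromosome 1, 135324807 to 135368065) had 0.201 and 0.15 CPM in MC010, 0.083 and 0.114 in MC011, 0.036 and 0.0588 in MC654, and 0.68 and 0.578 in MC659. The WT lines held both the highest and the lowest values. The log2 difference of -1.29 (SE 0.88, edgeR adjusted p = 0.287) was -2.19 without MC654 and 1.5 without MC659.

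Des (chromosome 1, 75360329 to 75368579) had 32 and 22 counts in MC010, 0 and 0 in MC011, 2 and 1 in MC654, and 2 and 7 in MC659. Its mean of 0.29 CPM in MC010 was 8.38 times the mean floor of the MC011 libraries, 0.0345 CPM. An antisense gene overlaps 5.86% of its exon bases.

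Each KO line was then set against the mean of the WT lines in a fit with 1 group per line. Both of these comparisons share the WT libraries. MC010 had 1 gene called higher, Actg2, and 3 called lower, Acta2, Tagln and Myl9, where 19.7% of all genes were called higher and 17.4% lower. MC011 had 0 called higher and 3 called lower, Acta2, Tagln and Cald1, where 17.3% of all genes were called higher and 13.4% lower. The medians over the 9 genes were -0.471 in MC010 and -0.61 in MC011 on the log2 scale, and those of all genes 0.002 and 0.004.

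Acta2 differed from the WT lines by -1.37 (SE 0.05) in MC010 and by -2.37 (SE 0.05) in MC011 on the log2 scale, with edgeR adjusted p of 4.27e-13 and 1.77e-15. For Tagln the differences were -3.76 (SE 0.06) and -4.76 (SE 0.07), with adjusted p of 6.91e-17 and 2.07e-17. Both genes were thus lower in each KO line, and further down in MC011. Myl9 was lower in MC010, by -1.05 (SE 0.08, adjusted p = 1.05e-08), and at -0.28 in MC011 stayed under the fold threshold (adjusted p = 0.00481). Cald1 was at -0.47 in MC010 and -0.62 in MC011, and Cnn2 at -0.58 and -0.55, all close to the fold threshold. Actg2 was 2.21 higher in MC010 (SE 0.50, adjusted p = 0.000997) and at -0.30 in MC011 (adjusted p = 0.691). One library set the value in MC011, which was 0.69 without the first library of that line (adjusted p = 0.172) and -3.58 without the second (adjusted p = 0.00111).

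**Figure D3:**
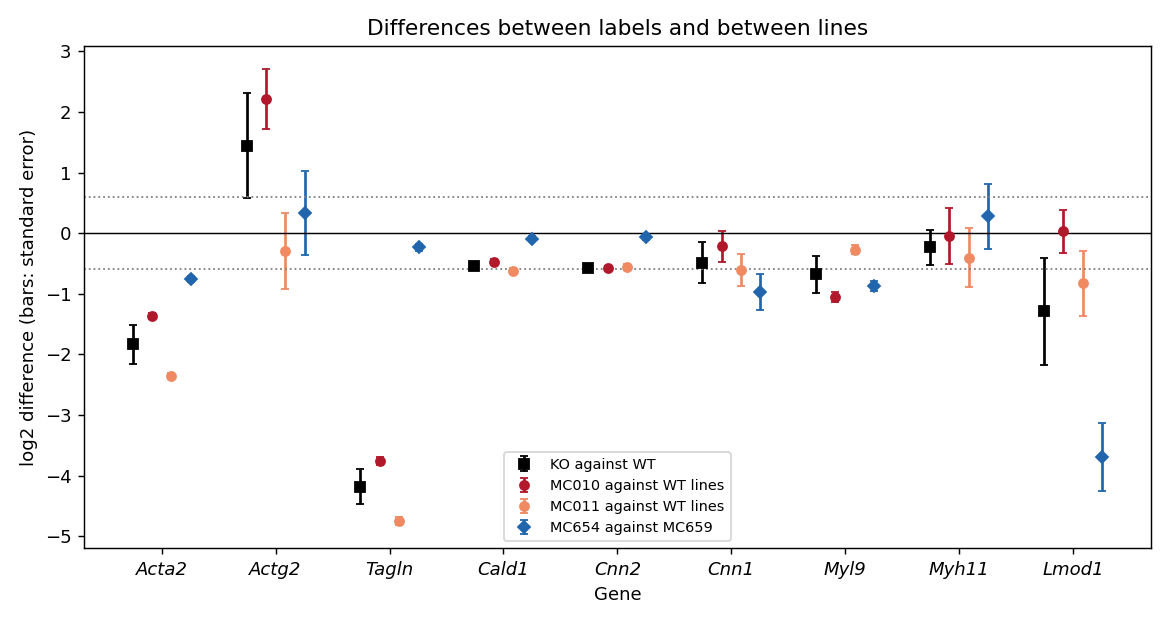
Log2 differences of the 9 genes tested, with bars for the standard error, between the labels (squares), between each KO line and the WT lines (circles) and between the WT lines (diamonds), with dotted lines at the fold threshold of 0.59. Acta2 and Tagln lie below the threshold in both KO lines, and Lmod1, at -3.69, has the largest difference between the WT lines.

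Lines of 1 label also differed. Between the KO lines, Acta2 was 1.00 (SE 0.05, edgeR adjusted p = 1.54e-10), Tagln 1.00 (SE 0.07, adjusted p = 7.40e-09) and Actg2 2.51 (SE 0.64, adjusted p = 0.00303) higher in MC010 than in MC011 on the log2 scale. Myl9 was lower in MC010, by -0.78 (SE 0.09, adjusted p = 2.04e-06). The difference of Actg2 was 1.52 without the first and 5.79 without the second library of MC011, and with DESeq2 its adjusted p was 0.0545. These 4 of the 9 genes were called, against 31.6% of all genes called in either direction between MC010 and MC011. Between the WT lines 4 of the 9 genes were called, all lower in MC654, against 4.95% of all genes. They were Acta2 at -0.75 (SE 0.05, adjusted p = 8.43e-08), Myl9 at -0.88 (SE 0.09, adjusted p = 5.07e-06), Cnn1 at -0.97 (SE 0.29, adjusted p = 0.0384) and Lmod1 at -3.69 (SE 0.56, adjusted p = 0.000322). The call of Cnn1 was lost when any 1 of the 4 WT libraries was left out, at edgeR adjusted p of 0.0543 to 0.214, and DESeq2 gave no adjusted p for Lmod1. Tagln was also lower in MC654, by -0.23 (SE 0.05, adjusted p = 0.00960), short of the fold threshold.

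The order of the lines was MC659, MC654, MC010 and MC011, from highest to lowest, for Acta2, Tagln and Cald1. Every pair of neighbours in it differed for Acta2 and Tagln, with adjusted p of at most 0.00960, and all but MC659 and MC654 (adjusted p = 0.198) differed for Cald1. For Cnn2 the neighbours within a label did not differ beyond their spread, at an adjusted p of 0.377 for MC659 over MC654 and 0.612 for MC011 over MC010. For Myl9 the order was MC659, MC011, MC654 and MC010, and the middle pair did not differ (adjusted p = 0.127). Lmod1 had MC659 on top, apart from the next line at an adjusted p of 0.00240, and Actg2 had MC010 on top at 0.00831, and the neighbours among the other 3 lines did not differ beyond their spread for either gene. Cnn1 had MC659 on top at 0.0404, and the neighbours of Myh11 had adjusted p of 0.703 to 0.891.

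The genes whose pattern over the 8 libraries was most like that of Acta2, by the root mean square difference of centred log2 CPM among 10745 genes, were Rnf213 at 0.133, Parp12 at 0.176, Thbs1 at 0.179, Apol9a at 0.185 and Apol9b at 0.186. Rnf213, the closest of them, had 128.5 CPM in MC010, 66.13 in MC011, 295.4 in MC654 and 388.6 in MC659. Thbs1, at rank 3, encodes the matrix protein thrombospondin-1. It had 1078 CPM in MC010, 402 in MC011, 2019 in MC654 and 2832 in MC659. What these 5 genes share beyond this pattern was not tested. Of the contractile genes, Cald1 ranked 674, Cnn2 785, Myl9 1505 and Tagln 8132 by this measure. The measure weighs the size of differences as well as their order. Tagln had the line order of Acta2 but a larger log2 difference, KO minus WT, of -4.18 against -1.83. Genes most like Cnn1, where MC659 is highest, were Ypel3 at 0.179, Gadd45a at 0.206, Mok at 0.217, Nupr1 at 0.23 and Polr3gl at 0.234.

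Among regulators of the contractile program, Srf, Mkl1 and Mkl2 were not called between the labels and 3 other factors were higher in KO. Of 12 regulators listed, 10 were in the table and tested. Of these 3 were called higher and 0 lower, against 13.7% of all genes called higher and 8.72% lower. Their median log2 difference was 0.081. Srf itself had 92.0 and 81.8 CPM in MC010, 82.6 and 73.2 in MC011, 127 and 115 in MC654, and 114 and 119 in MC659. All KO libraries lay below all WT libraries, as in 20.5% of all genes tested. The log2 difference of -0.52 (edgeR adjusted p = 0.00130) was short of the fold threshold. Mkl1 and Mkl2, which encode the myocardin-related factors MRTF-A and MRTF-B, were at 0.12 (adjusted p = 0.568) and -0.14 (adjusted p = 0.221).

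Klf4, a zinc-finger factor known to repress smooth muscle genes, had 38.5 and 37.1 CPM in MC010, 166 and 157 in MC011, 12.9 and 12.4 in MC654, and 15.5 and 15.5 in MC659. Its order over the lines put MC011 on top, and the log2 difference was 2.82 (SE 0.55, edgeR adjusted p = 0.00492). Mef2c, a MADS-box factor of muscle, was 2.29 higher (SE 0.38, adjusted p = 0.00251), and Prrx1, a homeobox factor of mesenchyme, 1.13 higher (SE 0.31, adjusted p = 0.0212). Prrx1 was 1022 CPM in MC010 and 439 in MC011, against 328 and 338 in the WT lines.

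Of 13 genes of the contraction machinery tested, 2 were called higher and 1 lower, against 13.7% and 8.72% of all genes. Their median log2 difference was -0.17. Mylk, the myosin light chain kinase that starts contraction, had 7.29 and 6.79 CPM in MC010, 2.73 and 2.95 in MC011, 1.08 and 1.12 in MC654, and 1.59 and 1.13 in MC659. All KO libraries lay above all WT libraries, the opposite side from Acta2 and Tagln and a placing seen in 22.1% of all genes tested. The log2 difference was 2.01 (SE 0.38, edgeR adjusted p = 0.00442). Myl6b, an essential light chain, was 1.71 higher (SE 0.20, adjusted p = 0.000412). Myh10, a nonmuscle myosin heavy chain, was lower, at -0.75 (SE 0.25, adjusted p = 0.0457), with 207 CPM in MC010, 410.0 in MC011, 526 in MC654 and 511 in MC659.

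Of 20 actin-binding and focal adhesion partners tested, 3 were called higher (Itga8, Synpo2 and Mcam) and 6 lower (Actn4, Vcl, Fermt2, Fhl2, Ctgf and Cyr61). Of all genes 13.7% were called higher and 8.72% lower. The median log2 difference of the 20 partners was -0.343. Cyr61, a matricellular protein whose gene responds to SRF and YAP, was 189 and 176 CPM in MC010, 165 and 166 in MC011, 578 and 559 in MC654, and 685 and 685 in MC659. Its 2 KO lines lay close together, at a log2 difference of -1.85 from WT (SE 0.09, edgeR adjusted p = 7.80e-06). Ctgf, of the same protein family, was at -1.24 (SE 0.26, adjusted p = 0.00692) and Fhl2, a LIM-domain cofactor, at -1.20 (SE 0.07, adjusted p = 1.24e-05). Synpo2, an actin-bundling protein of the Z-disc, rested on 1 line. It had 98.2 and 102 CPM in MC010 and 1.03 to 1.81 in the other 6 libraries, and its log2 difference of 5.36 had an SE of 1.47 (adjusted p = 0.0224).

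**Figure D4:**
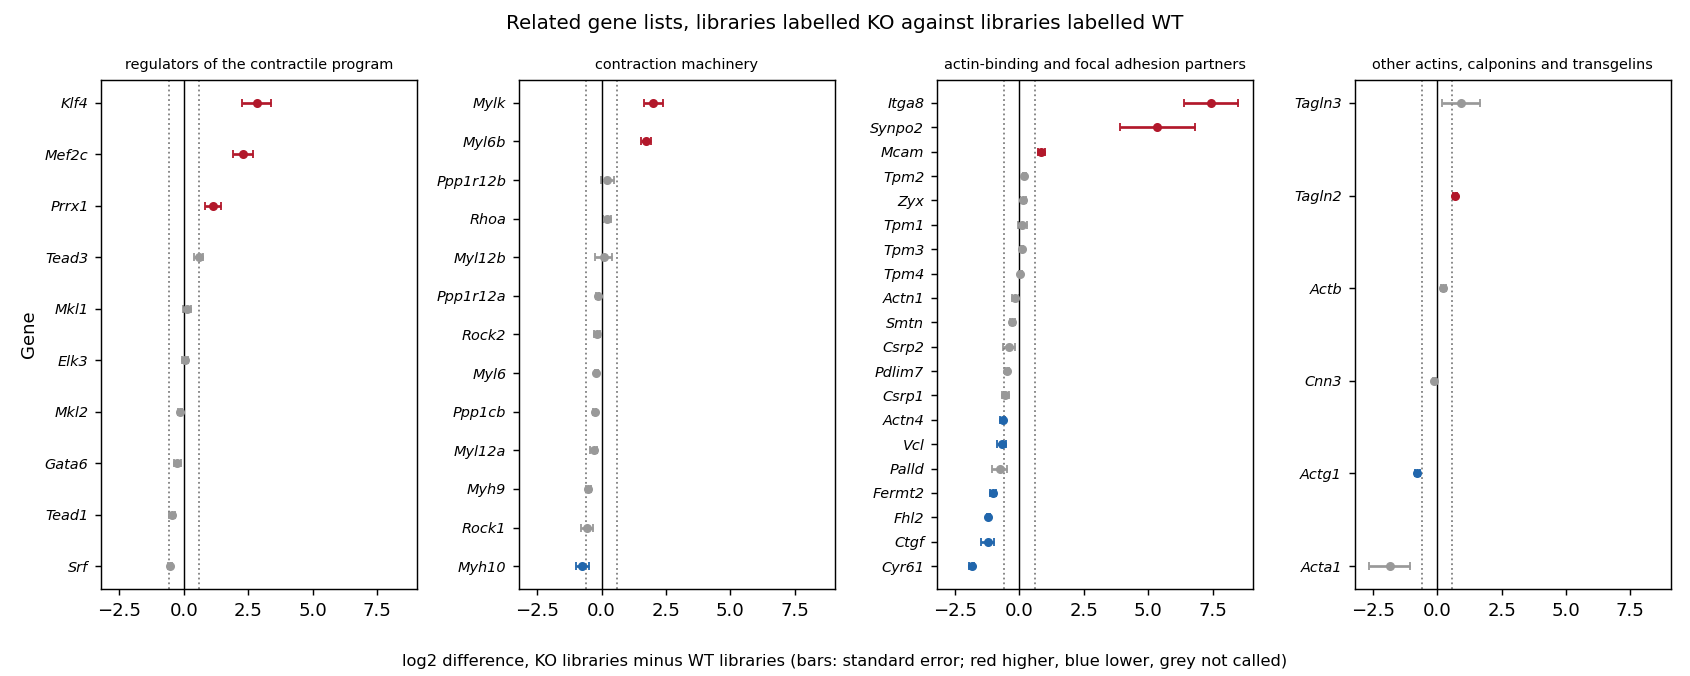
Log2 differences, KO minus WT, with standard errors for the tested genes of 4 related lists. Red points were called higher and blue points lower, and dotted lines mark the fold threshold of 0.59. Calls ran in both directions in 3 of the lists, while in the regulators all 3 calls, Klf4, Mef2c and Prrx1, were higher.

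Of 9 other actins, calponins and transgelins listed, 6 were in the table and tested. Of these 1 was called higher and 1 lower, against 13.7% and 8.72% of all genes. Actg1, the cytoplasmic gamma-actin, was lower, at -0.77 (SE 0.09, edgeR adjusted p = 0.000593), and Tagln2, a transgelin of nonmuscle cells, higher, at 0.69 (SE 0.06, adjusted p = 0.000126). Actb, the cytoplasmic beta-actin, was at 0.24 (adjusted p = 0.126), Cnn3, a calponin of many tissues, at -0.11 (adjusted p = 0.108) and Acta1, the skeletal alpha-actin, at -1.85 (adjusted p = 0.103). No level of Actc1 was obtained here. The 2 transgelins thus moved in opposite directions, Tagln with 18.2-fold more in WT and Tagln2 with 888 ± 59.2 CPM in KO against 551 ± 16.9 in WT (SD, n = 4).

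In bulk RNA, fewer cells with a transcript and less transcript per cell cannot be told apart, so markers of other cell types were summed as well. Fibroblast markers, 12 of 12 in the table, summed to 9790 to 10600 CPM in KO and 14500 to 16100 in WT libraries. That sum turned on 1 gene, Fn1 (fibronectin), with a mean of 1587 CPM in KO and 7973 in WT. Without Fn1, left out after its values were seen, the list summed to 8000 to 9400 CPM in KO and 6690 to 8050 in WT. Most of that remainder was Vim (vimentin), with a mean of 6221 CPM in KO and 4745 in WT. The sum without Fn1 therefore mainly follows Vim and does not show that the other fibroblast markers were higher in KO. Of 11 tested, 3 were called higher (Pdgfra, S100a4 and Thy1) and 1 lower (Fn1, at -2.33 with an SE of 0.22), and the median log2 difference was 0.391. Of all genes 13.7% were called higher and 8.72% lower, shares that also stand beside the marker counts below. Pericyte markers, 5 of 8 in the table, summed to 123 to 405 CPM in KO and 152 to 165 in WT, with MC011 at 389.5 and 404.5, and 0 of 5 were called. Hematopoietic markers, 4 of 8 in the table, summed to 5.72 to 7.38 CPM in KO and 9.67 to 11.4 in WT, with 1 of 2 called lower. Endothelial markers, 5 of 6, summed to at most 2.24 CPM in any library, with 2 of 4 tested called higher.

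Skeletal muscle markers, 8 of 18 in the table, summed to 9.17 and 9.78 CPM in MC010, 1.87 and 2.32 in MC011 and 2.57 to 3.86 in WT, highest in the line that was also highest for Actg2 and Des. The myogenic factor Myod1 had a mean of 2.62 CPM in MC010 and 0 in MC011, and Ttn, the giant protein titin, 2.61 and 0.12. Both failed the filter on low counts. Chrna1, Mylpf and Tnnt3 were also higher in MC010 than in MC011. Tnni1 (0.0539 against 0.221 CPM), Tnnt1 (0.00874 against 0.226) and Myh3 (0.0442 against 0.057) were lower in MC010. Mylpf, at 1.17 CPM in MC010, lay under both WT lines, at 1.35 in MC654 and 1.40 in MC659. Of the 3 skeletal markers tested, 0 were called in either direction between the labels. Cardiac markers, 4 of 8, summed to 4.83 to 16.0 CPM in KO and 9.34 to 11.5 in WT, with 1 of 3 called higher and 2 lower. The marker called higher was Nppb, with a mean of 12.9 CPM in MC010, 3.50 in MC011 and 0.213 in WT libraries. Among those called lower was Tnnt2 at -2.56 (SE 0.44, edgeR adjusted p = 0.00290). Epithelial markers, 5 of 6, summed to 34.1 to 565 CPM in KO and 114 to 129 in WT, with 1 of 5 called higher. The KO lines lay on opposite sides of WT, with MC010 at 565 and 531 CPM and MC011 at 34.1 and 35.7. The part of these markers in the differences of the contractile genes was not tested.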

How the data were processed

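RNA of 8 libraries from 4 tumor lines was sequenced. Per the submitters' processing notes, the authors aligned reads to mm10 (GRCm38.p6) with STAR 2.7.3a, counted them per gene with HTSeq 0.11.2 and compared genotypes with DESeq2. The study's text names other versions. The deposited raw counts were used. The deposited table also holds a signal per library (the count divided by a size factor by the authors) and the authors' own fold changes and p-values, none of which were used. The library preparation was stranded, and the strand option of the counting was not stated. The table's lowest gene total was 20 counts.

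Counts were filtered with filterByExpr by label (minimum count 10), scaled by TMM and tested with the quasi-likelihood method of edgeR 4.0.16 (R 4.3.3, robust) with Benjamini-Hochberg adjustment over all 15153 genes. Calls required an adjusted p under 0.05 and a log2 difference above 0.59 in size, the thresholds of the study. One fit had the 4 KO against the 4 WT libraries, and a second had 1 group per line. Standard errors were derived from the log2 difference and the F statistic. The fits were tested on simulated counts. These had the spread between libraries of a line and no differences between lines of a label. They therefore cannot show how the fit of the labels behaves with such differences. Exon lengths came from GENCODE M21, where Acta2 has slightly other coordinates than in the table, and 15132 of 15153 tested genes had one. Promoters came from RefSeq. Alternatives used DESeq2 1.42.0, limma 3.58.1 (voom), other filters and scalings, and left out libraries or lines.

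The genes described and the lists were chosen with earlier results of these data known. Named genes were all 10 contractile genes, up to 4 called genes per list with 1 direction in all 4 comparisons between a KO and a WT line and a mean log2 CPM of at least 1, a set of fixed regulators and actins, and the 5 genes most like Acta2 and Cnn1, each ranked among tested genes with that mean log2 CPM. Others were named after their values were seen, where a count was small or a value stood beside a result. They were Itga8, Mcam, Actn4, Vcl, Fermt2, Vim, Nppb, Myod1, Ttn, Tnnt3, Tnni1, Tnnt1, Myh3, Chrna1, Mylpf, Gm48529 and Pcsk7. Intervals and floors cover counting error only.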

Additional observations from a re-analysis of the deposited data

Results flagged for a closer look

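Of 20 groups of 4 libraries examined (10 genes, 2 labels), 1 held a library that stood apart from the other 3 by Dixon's test, where chance gives about 1 in 20 groups. It was Myh11 in the first MC010 library, at 0.192 CPM against 0.122 to 0.127 in the other KO libraries.

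The difference from the WT lines was not the same in the KO lines for 4 genes, by the direct test of MC010 against MC011 given in the report. On the log2 scale Acta2 differed by 1.00, Tagln by 1.00, Actg2 by 2.51 and Myl9 by -0.78, MC010 minus MC011. Acta2 and Tagln were below the WT lines in both KO lines, less so in MC010, while Actg2 was above the WT lines in MC010 and Myl9 fell below them by a log2 of more than 0.59 in MC010.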

How the results depend on the processing

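Of the 9 genes, 2 were called between the labels. The share of all genes called was 22.5%. The number was 4 with no fold threshold (Acta2, Tagln, Cnn2 and Cald1, 37.5% of all genes), 6 without line MC011 (2 higher and 4 lower of 10 tested, 36.3% of all genes), 5 without line MC654 (of 10, 12.7% of all genes) and 0 when the counts of each line were added together, a fit in which 0 of 15153 genes were called and 3361 had an unadjusted p under 0.05. Leaving out 1 library at a time gave 2 to 3. Against the WT lines, MC011 had 3 genes called, 5 with no fold threshold (30.7% and 65.3% of all genes) and 3 to 4 with 1 library left out. With 1 library left out the number was 4 to 5 for MC010 against the WT lines, 4 to 4 for MC010 against MC011 and 3 to 4 for MC654 against MC659. The direction turned for Actg2 without MC010 (-0.29), for Cnn1 without MC659 (0.065) and for Lmod1 without MC659 (1.5). Acta2 stayed lower in KO under all 18 alternatives, from -2.43 to -1.42, and Tagln from -4.78 to -3.77, with the call lost on line sums only. Deviations of same-numbered libraries from their line means correlated between -0.236 and 0.378 over 6 pairs of lines. With only 2 libraries per line, this cannot decide whether the library numbers pair the libraries. A replicate block on the library number left 2 genes called between the labels, as without it. With the line as a random block (voom, within-line correlation 0.828) the calls of Acta2 and Tagln stood. The cause of these changes was not tested. Depth limits Myh11, Lmod1, Actg2 and Des, at 0 to 150 counts per library.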
